A study of Mus musculus with 192 samples.

Results

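The comparison described here is that of thymus RNA from flown mice with and without Nrf2, the transcription factor encoded by Nfe2l2. Its members were chosen by the sample labels, as the thymus libraries whose condition is Flight. They comprise 5 libraries from Nrf2-KO mice (FL_KO: FL01, FL02, FL09, FL11 and FL12) and 6 from WT mice (FL_WT: FL03, FL05, FL06, FL07, FL08 and FL10), or 11 of the 192 libraries of the series, which spans 9 tissues. A sixth FL_KO mouse, FL04, bled severely into the intestine during the return flight and was left out, as the study did.

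All mice were male, of the C57BL/6 strain and 12 weeks old per the labels. In the published methods this is the age of the flight mice shortly before launch, so they were older at dissection. The published methods name the J substrain as the background. Nrf2-KO mice carried the germline allele Nfe2l2tm1Ymk, in which a reporter gene replaces part of the coding sequence, so that Nrf2 is missing from every cell and not from the thymus alone. Nrf2-KO mice had been screened with ketamine and xylazine to remove those with a hepatic shunt, a vascular anomaly known in this line. FL_KO and FL_WT mice lived singly housed for 31 days on the International Space Station, returned to Earth alive and went through behavioral tests before dissection. Ground control mice (GC_KO and GC_WT, 6 libraries each) were housed in the same equipment in Japan several months later, and are used here to place the flight comparison. Each library came from a separate mouse.

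Nrf2 is held in the cytoplasm and marked for degradation by Keap1. When oxidants or electrophiles modify Keap1, Nrf2 accumulates, pairs with small Maf proteins and binds antioxidant response elements near genes for glutathione transferases, thioredoxin reductase and enzymes that supply NADPH. The thymus is the organ in which T cells develop. Most of its cells are immature thymocytes in the cortex, which rearrange their T cell receptor genes with the recombinase Rag1/Rag2. Cortical epithelial cells support and positively select them, and medullary epithelial cells present tissue-restricted antigens, many of them under control of Aire, to remove self-reactive cells. Markers of the labelled tissue were high in all libraries, with Rag1 at 3086 to 5235 counts per 1000000 counts (CPM) in the flight mice and the thymoproteasome subunit Psmb11 at 86.1 to 166 CPM.

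Of 16307 genes tested, 431 (2.64%) differed between FL_KO and FL_WT mice at an adjusted p under 0.05 in edgeR's quasi-likelihood test, and such genes are referred to as called. In FL_KO mice, 213 (1.31%) were higher and 218 (1.34%) lower. The median absolute log2 fold change of the called genes was 0.45, and 68 of them reached an absolute value of 1. The FL_KO and FL_WT mice did not overlap in CPM for 559 of all genes tested (3.43%) and for 277 of the called genes. On the first principal component of the 11 libraries, which held 22.6% of the variance, all FL_KO mice had negative scores and all FL_WT mice positive ones. The number of calls depended on single mice. It was 191 without FL01, 269 without FL02, 180 without FL12, 187 without FL03, 202 without FL07, 253 without FL08, 208 without FL10, 701 without FL05, and 197 when FL04 was included. In limma on log2(TPM + 1), that is on transcripts per 1000000 (TPM), the test called 81 genes out of 10158 tested. Of those called 19.8% were higher, against 49.4% by edgeR.

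Library totals were 8089883 to 8790128 expected counts in FL_KO and 8610950 to 9551992 in FL_WT mice. Protein-coding genes took 76.2 to 79.1% of the counts in FL_KO and 79.2 to 81.7% in FL_WT mice, with no overlap, and small and mitochondrial RNA took 13.8 to 16.7% and 12.5 to 14.6%. The part of these shares in the differences below was not tested. In whole thymus, fewer cells of a type and less RNA per cell cannot be told apart. Levels are given as CPM with TMM scaling and are compared within a gene, never between genes.

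Nfe2l2 (ENSMUSG00000015839, chr2:75675513-75704641 on GRCm38, minus strand) was measured at 29.4, 31.9, 32.1, 26.6 and 33.1 CPM in the 5 FL_KO mice. In FL_WT mice the lowest, median and highest values were 61.8, 65.3 and 69.2 CPM. The groups were far apart, at 30.6 ± 2.63 (SD, n = 5) and 65.5 ± 3.42 CPM (SD, n = 6). The log2 fold change was -1.10 (SE 0.069, edgeR adjusted p = 3.23e-11), against -1.20 on the ground. Transcript from the parts of the gene that the allele retains is counted as Nfe2l2, so this level does not check the deleted part.

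The promoters of Gsta3 and Txnrd1 are shown because both genes are targets chosen by the study, were lower in FL_KO mice and hold the core of the antioxidant response element, searched here as TGACNNNGC on either strand. The sequences are the 200 bases upstream of the RefSeq start on GRCm38.p6, both on the plus strand, with the motif in capitals. Gsta3 is at chr1:21240385-21240584 and its motif begins 121 bases before the start. The Txnrd1 promoter (the second of 3 in RefSeq) is at chr10:82859006-82859205, and its motif, which reads TGACAAAGC on the other strand, begins 92 bases before the start.
Gsta3: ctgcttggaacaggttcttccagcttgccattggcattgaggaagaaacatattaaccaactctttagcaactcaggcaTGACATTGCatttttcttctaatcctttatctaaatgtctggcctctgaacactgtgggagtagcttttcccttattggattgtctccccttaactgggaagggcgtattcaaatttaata
Txnrd1: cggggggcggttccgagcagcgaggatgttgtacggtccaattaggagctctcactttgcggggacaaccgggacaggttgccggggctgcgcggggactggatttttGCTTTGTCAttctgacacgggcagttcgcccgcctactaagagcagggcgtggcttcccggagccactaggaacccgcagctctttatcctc
In the window from 250 bases before to 50 after the start, the motif was present in 7 of the 21 study targets with a promoter in the table (33.3%), against 3781 of 27025 genes (14%). Among called genes it was present in 14.3% of those lower and 14.4% of those higher in FL_KO mice, and in 16.7% of the genes tested. The letters of the motif were thus no more frequent near the called genes than near the genes tested.

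Of the 26 detoxication and antioxidant enzymes that the study chose as Nrf2 targets, 23 passed the filter on low counts (Abcc2, Gpx2 and Gstm3 did not). Of these, 5 were lower in FL_KO mice (21.7%) and none was higher by edgeR or DESeq2, also at an unadjusted p under 0.05. A further 14 had log2 fold changes below 0 without passing the test, and the median of the list was -0.12, against -0.01 for all genes tested. The count was 1 without FL01, FL12, FL03 or FL07, 2 without FL02, FL09 or FL10, 3 without FL06 or FL08, and 2 with FL04 included.

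Gsta3, an alpha class glutathione transferase, had the largest fold change of the list. It was measured at 2.1, 1.4, 2.65, 1.54 and 1.2 CPM in FL_KO mice, and from 2.85 through 3.40 to 5.49 CPM in FL_WT mice. No FL_KO mouse reached the lowest FL_WT mouse, and the log2 fold change was -1.06 (SE 0.236, adjusted p = 0.0149). Gstm1, the mu class transferase, was at 7.72, 8.3, 10, 17.1 and 10.9 CPM in FL_KO mice and at 14.4, 16.9 and 21.6 CPM (lowest, median and highest) in FL_WT mice. FL11 lay within the FL_WT range, and the log2 fold change of Gstm1 was -0.70 (SE 0.195, adjusted p = 0.0496). Gstm2, its neighbor in the mu class cluster, is not on the study list and fell by 0.64 on the log2 scale (adjusted p = 0.0333) without overlap between the groups.

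The other called targets changed by less. Taldo1, transaldolase of the pentose phosphate pathway, was at 74.3, 80, 92, 86.2 and 73.8 CPM in FL_KO mice and at 94, 96.9 and 106 CPM in FL_WT mice, with no overlap and a log2 difference of -0.27 (adjusted p = 0.0179). Aldh2, the mitochondrial aldehyde dehydrogenase, was at 51.3, 50.1, 57.3, 75.8 and 61 CPM against 65.4, 76.3 and 82 CPM (-0.35, adjusted p = 0.0403), and here FL11 again lay among the FL_WT mice. Txnrd1, cytosolic thioredoxin reductase, was at 55.9, 57.4, 59.7, 59.7 and 63.3 CPM against 60.6, 68.4 and 74 CPM (-0.21, adjusted p = 0.0326). Thus the differences of Taldo1, Aldh2 and Txnrd1 were reductions of 1.15 to 1.28 times.

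Several classical targets did not pass the test in the flight mice. Nqo1, a quinone reductase, was at 22.1, 22, 22.7, 28.5 and 22.2 CPM in FL_KO and at 25.1, 29 and 34 CPM in FL_WT mice (log2 fold change -0.32, SE 0.115, adjusted p = 0.125). Hmox1, which degrades haem, was at 7.48, 8.42, 9.26, 10 and 10.6 CPM against 9.07, 10.6 and 15.5 CPM (-0.33, SE 0.142, adjusted p = 0.191). In 4 of 5 FL_KO mice Nqo1 lay below every FL_WT mouse, while Hmox1 overlapped in 3. Gclc, which catalyzes the rate-limiting step of glutathione synthesis, had an estimate of -0.12 (adjusted p = 0.229) and Srxn1, sulfiredoxin, one of -0.11 (adjusted p = 0.448). On the log2 scale the estimates of Gsta2 (0.41), Gstm4 (0.30) and Me1 (0.20) were above 0.

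**Figure D1:**
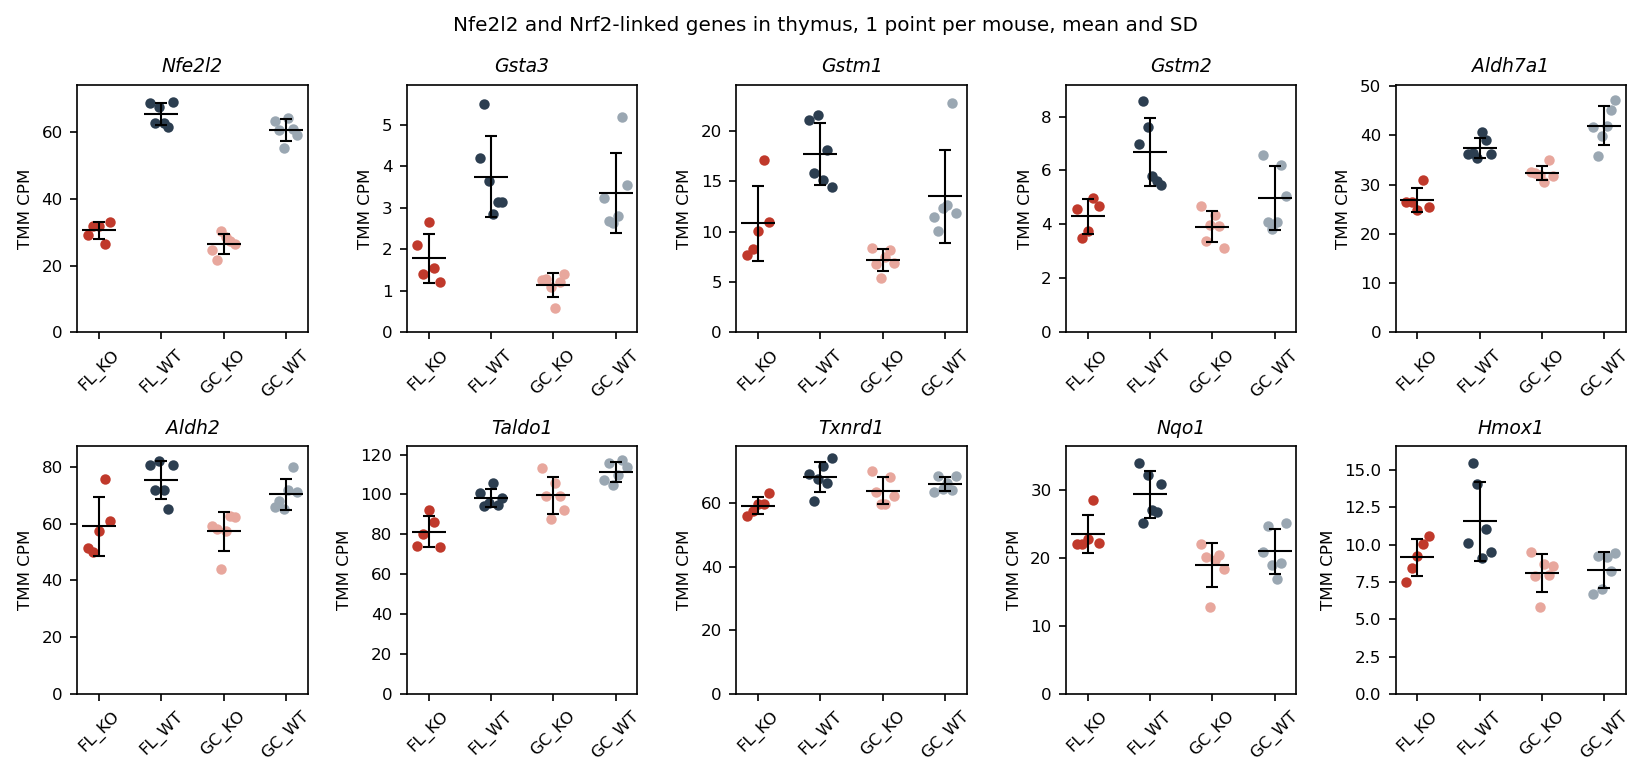
CPM (y axis, TMM scaled, starting at 0) of Nfe2l2 and 9 Nrf2-linked genes in the 4 thymus groups, with 1 point per mouse and bars for the mean and SD. Nfe2l2, Gsta3, Gstm2, Aldh7a1 and Taldo1 show no overlap between FL_KO and FL_WT mice, whereas FL11 lies within the FL_WT range in Gstm1, Aldh2 and Nqo1.

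Of 42 further genes linked to Nrf2, 2 (4.76%) passed the test in flight, both lower in FL_KO mice, against 2.64% of all genes tested. Besides Gstm2 this was Aldh7a1, an aldehyde dehydrogenase of lysine breakdown, which was at 26.5, 26.4, 24.9, 31 and 25.5 CPM in FL_KO and at 35.5, 36.4 and 40.7 CPM in FL_WT mice. The groups did not overlap, and the log2 fold change was -0.47 (SE 0.067, adjusted p = 8.47e-05). Mgst1, a microsomal glutathione transferase, had an estimate of -0.69 (adjusted p = 0.0554) and Blvrb, biliverdin reductase B, one of -0.44 (adjusted p = 0.0540). Of 17 genes that encode Nrf2 or its partners and regulators, Nfe2l2 and Btrc were lower (11.8%). Btrc, a substrate adaptor of the ubiquitin ligase that acts on Nrf2 independently of Keap1, was at 18.2, 16.8, 18, 17.9 and 20.7 CPM against 24.2, 25 and 27.5 CPM (log2 fold change -0.47, adjusted p = 8.47e-05; -0.54 on the ground). Keap1 (-0.09), the repressor Bach1 (-0.03) and Cul3 (-0.03) did not pass the test.

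Genes of thymocyte development were lower rather than higher where they passed the test. Of 59 genes tested, 5 were lower in FL_KO mice (8.47%) and none was higher by edgeR or DESeq2, with 6 higher at an unadjusted p under 0.05. Log2 fold changes were below 0 for 40 of them, with a median of -0.07. These counts were 3 without FL01, FL02, FL12, FL08 or FL10, 9 without FL06, and 3 with FL04 included.

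Rag1 and Rag2, the recombinase of T cell receptor rearrangement, led this group. Rag1 (ENSMUSG00000061311, chr2:101638282-101649501) was at 3086, 3407, 3742, 3561 and 3101 CPM in FL_KO mice and at 4205, 4735 and 5235 CPM in FL_WT mice. Every FL_KO mouse was below every FL_WT mouse, and the difference was -0.49 on the log2 scale (SE 0.065, adjusted p = 2.89e-05). Rag2 was at 101, 112, 122, 124 and 113 CPM against 128, 150 and 180 CPM, also without overlap (-0.42, SE 0.087, adjusted p = 0.00837). The genes are neighbors that lie 25.96 and 25.95 Mb from Nfe2l2 on the same chromosome. On the ground Rag1 was lower in Nrf2-KO mice as well (-0.27, adjusted p = 0.0116), and Rag2 had an estimate of -0.15 (adjusted p = 0.308).

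Other called thymocyte genes were Cd247, the zeta chain of the receptor complex (-0.22, adjusted p = 0.00879), the coreceptor chain Cd8b1 (-0.29, adjusted p = 0.0208) and Cd5, which dampens receptor signaling (-0.27, adjusted p = 0.0333). Cd8b1 was at 439, 484, 550, 528 and 494 CPM in FL_KO mice and at 505, 620 and 682 CPM in FL_WT mice, so that both ranges overlapped. Cd4 (-0.20, adjusted p = 0.0889), Cd8a (-0.14, adjusted p = 0.355) and terminal transferase Dntt (-0.19, adjusted p = 0.228) did not pass. Of genes outside the list, named after their values were seen, the adaptor Sit1 was lower without overlap (-0.35, adjusted p = 3.53e-04) and the receptor constant segment Trac was lower (-0.31, adjusted p = 0.0306).

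The differences in Rag1 and Rag2 were not accompanied by calls among genes of division. None of 49 cell cycle and replication genes passed the test by edgeR or DESeq2, with a median of -0.12 and 44 estimates below 0. At an unadjusted p under 0.05, 1 was higher and 8 were lower. The proliferation marker Mki67 was at 1126, 1097, 1151, 1156 and 1364 CPM in FL_KO mice and at 915, 1268 and 1421 CPM in FL_WT mice. The lists for Notch signaling (23 genes) and for p53 targets and apoptosis (28 genes) also had no call by either tool, with 1 Notch gene higher and 2 p53 or apoptosis genes higher and 4 lower at an unadjusted p under 0.05.

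In the epithelium, calls were made among medullary markers and not among cortical ones. Of 17 medullary markers tested, 6 were higher in FL_KO mice (35.3%), all 17 estimates were above 0 and the median log2 fold change was 0.47. Of 14 cortical markers none passed the test by edgeR or DESeq2 (3 at an unadjusted p under 0.05, all lower), all 14 estimates were at or below 0 and the median was -0.13. The count of 6 was 3 without FL01, 2 without FL02, FL12 or FL10, and 1 without FL09, FL03, FL07 or FL08 or with FL04 included.

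Aire (ENSMUSG00000000731, chr10:78030022-78043610), the regulator that turns on tissue-restricted antigens, was at 27.6, 29, 31.5, 25 and 21.1 CPM in FL_KO mice and at 13.5, 16.1 and 20.4 CPM in FL_WT mice. The groups did not overlap, and the log2 fold change was 0.70 (SE 0.132, adjusted p = 0.00386). Tnfrsf11a, the receptor (RANK) through which medullary epithelium matures, was at 23, 22.3, 26.6, 24.1 and 22.6 CPM against 13.6, 16.8 and 20.8 CPM, again without overlap (0.47, SE 0.116, adjusted p = 0.0286). Cd80, a costimulatory ligand of mature medullary epithelium and dendritic cells, was at 11.3, 13, 10.1, 8.49 and 7.7 CPM against 5.06, 5.75 and 8.03 CPM (0.69, SE 0.176, adjusted p = 0.0333). Here the highest FL_WT mouse exceeded FL12, the lowest of the FL_KO mice.

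The other 3 called markers belong to thymic tuft cells, a chemosensory type of medullary epithelium. Trpm5, their cation channel, was at 8.54, 11.8, 11.3, 10.3 and 10.9 CPM in FL_KO mice and at 5.07, 5.54 and 10.9 CPM in FL_WT mice (0.73, SE 0.184, adjusted p = 0.0333). A single FL_WT mouse, FL06, reached the FL_KO range of Trpm5. The actin-binding Avil (0.71, adjusted p = 0.0352) and the kinase Dclk1 (0.50, adjusted p = 0.0462) were higher too, and Pou2f3, the factor that specifies tuft cells, had an estimate of 0.88 (adjusted p = 0.140). Structural and chemokine genes of the medulla did not pass: Krt14 had an estimate of 0.46 (adjusted p = 0.0515), Krt5 one of 0.18 (adjusted p = 0.573), Ccl21a one of 0.36 (adjusted p = 0.212) and Fezf2, which controls antigens other than those of Aire, one of 0.36 (adjusted p = 0.235).

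The level of the whole list was summed per mouse as TPM, rescaled so that small and mitochondrial RNA do not count toward the total. The medullary sum was 846 to 1138 in FL_KO and 563 to 900 in FL_WT mice, where FL05 and FL06 reached the FL_KO range, and the cortical sum was 4915 to 5518 and 5147 to 6778. Genes outside the lists, named after their values were seen, included transcripts otherwise known from other tissues. Sspo, subcommissural organ spondin, was at 59.6, 67, 66.8, 55.6 and 60.7 CPM against 29.3, 35.4 and 45.1 CPM (0.77, adjusted p = 0.00102). Higher levels without overlap were also seen in Zp2, a zona pellucida protein of oocytes (2.07, adjusted p = 0.00381), in the sodium channel Scn9a (1.53, adjusted p = 0.00801) and in Skint1 (0.73, adjusted p = 0.0352) and Skint2 (0.75, adjusted p = 0.0447), which belong to a family expressed in skin and thymus.

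**Figure D2:**
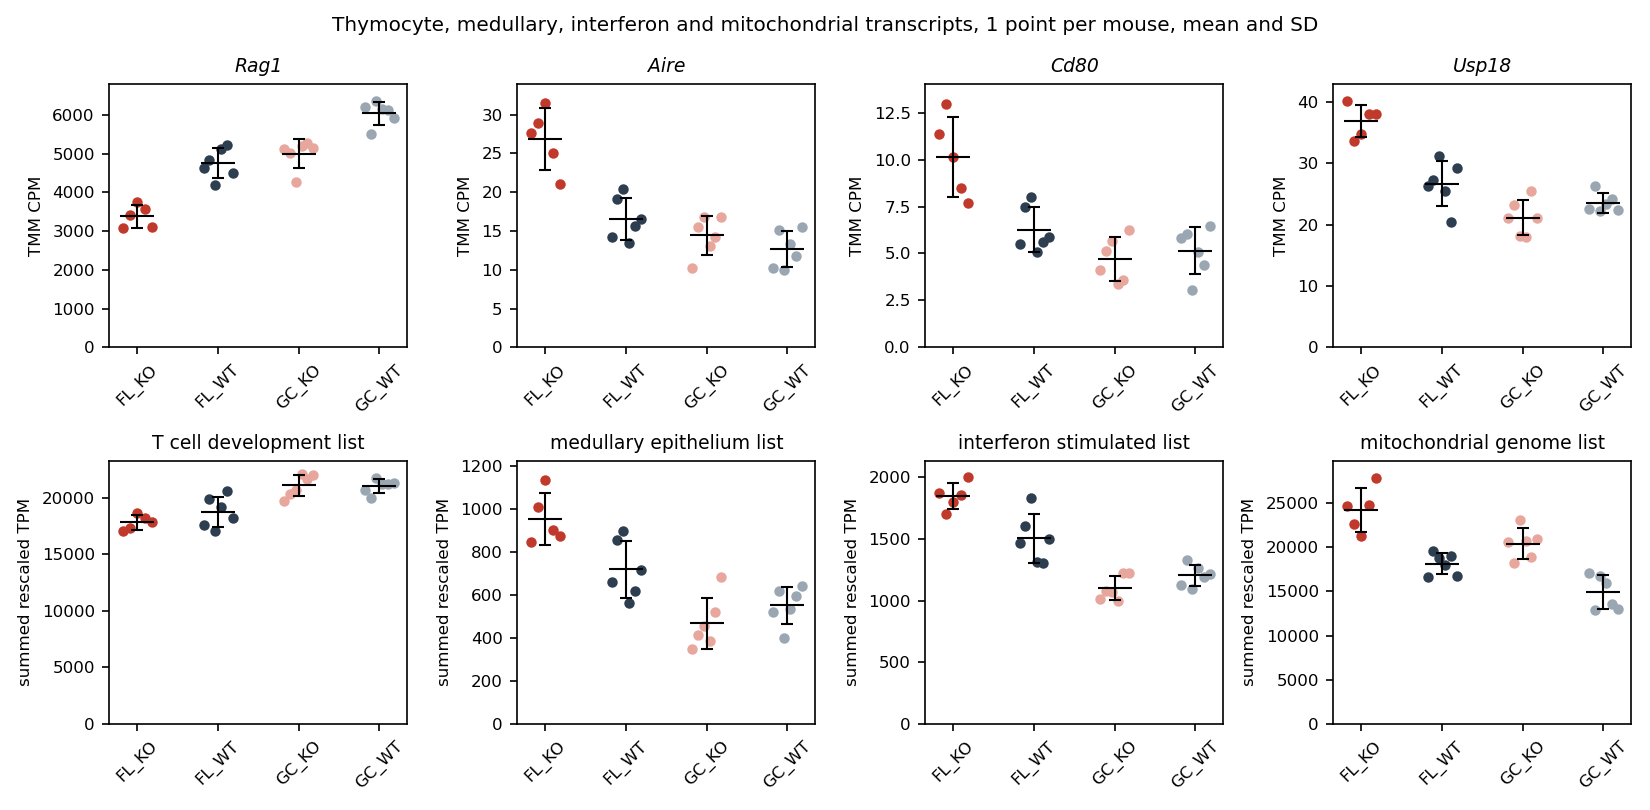
Top row, CPM of Rag1, Aire, Cd80 and Usp18; bottom row, summed TPM (rescaled without small and mitochondrial RNA) of 4 gene lists. Each point is a mouse, with bars for the mean and SD, and all y axes start at 0. Rag1 is lower and Aire and Usp18 are higher in every FL_KO mouse than in any FL_WT mouse, while the sums of the T cell development and medullary lists overlap.

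Some interferon stimulated genes were higher in FL_KO mice. Of 35 genes tested, 8 were called higher (22.9%) and none lower by edgeR or DESeq2 or at an unadjusted p under 0.05, all 35 estimates were above 0 and the median log2 fold change was 0.34. The summed level of the list was 1706 to 2000 TPM in FL_KO and 1306 to 1832 TPM in FL_WT mice, with FL06 within the FL_KO range. The count was 3 without FL01, FL03, FL08 or FL10, 5 without FL02, 2 without FL07, 1 without FL12, 20 without FL06, and 2 with FL04 included.

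Usp18, which restrains interferon signaling, was at 40.1, 33.7, 34.7, 38.1 and 38 CPM in FL_KO mice and at 20.4, 26.9 and 31.2 CPM in FL_WT mice, without overlap (0.47, SE 0.089, adjusted p = 0.00391). Zbp1, a sensor of nucleic acids, was at 33, 32.1, 32.5, 34.6 and 39.7 CPM against 24.1, 26.3 and 29.1 CPM, also without overlap (0.38, SE 0.083, adjusted p = 0.0145). Oas2 (0.76, adjusted p = 0.0181), Oas1a (0.49, adjusted p = 0.0408) and Oasl2 (0.34, adjusted p = 0.0421) belong to the oligoadenylate synthetases. Mx2 (0.88, adjusted p = 0.0286) and Mx1 (0.75, adjusted p = 0.0360) belong to the family of antiviral GTPases, and the annotation lists Mx2 as a polymorphic pseudogene. Irf7, the factor that amplifies the interferon response, rose by 0.48 on the log2 scale (adjusted p = 0.0360). The Oas2 and Mx2 values of FL09 lay within the FL_WT range.

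Other cell types showed single calls, which made 4.17 to 7.14% of their lists, against 2.64% of all genes tested. Siglech, a receptor of plasmacytoid dendritic cells, was at 7.37, 8.53, 5.07, 4.96 and 5.65 CPM in FL_KO mice and at 2.71, 3.83 and 4.94 CPM in FL_WT mice (0.71, adjusted p = 0.0430). It was the call among 15 dendritic cell genes, whose summed level was 824 to 858 TPM in FL_KO and 751 to 872 TPM in FL_WT mice. Pax5, which commits cells to the B lineage, was called among 14 B cell genes (0.63, adjusted p = 0.0306), with sums of 982 to 1580 and 1020 to 1777 TPM. Plvap, of fenestrated endothelium, was called among 14 endothelial genes (0.54, adjusted p = 0.0333) with sums of 179 to 241 and 159 to 204 TPM, and Col6a1 among 24 matrix genes (0.50, adjusted p = 0.0333) with sums of 553 to 726 and 470 to 716 TPM. None of 11 genes of MHC class II presentation passed the test by edgeR, although 1 did by DESeq2, 2 were higher at an unadjusted p under 0.05 and 10 estimates were above 0, and their sums were 5843 to 6410 TPM in FL_KO and 4312 to 6453 TPM in FL_WT mice. The part of these cell types in the medullary and interferon differences was not tested.

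Tissue that adjoins the thymus was present in differing amounts. The sum of thyroid and parathyroid genes was 10.2 to 319 TPM in FL_KO and 88.7 to 446 TPM in FL_WT mice, and that of adipocyte genes 207 to 705 and 333 to 651 TPM. No gene was called by edgeR among 3 thyroid and parathyroid, 13 adipocyte, 4 brown fat, 4 muscle, 5 erythroid, 3 platelet, 9 neutrophil and mast cell, 13 plasma cell and 16 macrophage genes that were tested. Of these 70 genes 4 were higher and 4 lower at an unadjusted p under 0.05, and DESeq2 called 1 higher. Brown fat sums were 12.4 to 36.1 TPM in FL_KO and 17.9 to 30.6 TPM in FL_WT mice, and muscle sums 34.8 to 47.6 and 31.7 to 54.3 TPM.

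Transcripts of the mitochondrial genome were higher in FL_KO mice where they passed the test, whereas nuclear genes of the same complexes were lower where they passed. Of 12 mitochondrially encoded subunits tested, 7 were called higher (58.3%), all 12 estimates were above 0 and the median log2 fold change was 0.46. Of 77 nuclear subunits of oxidative phosphorylation, 5 were called lower (6.49%), 74 estimates were below 0 and the median was -0.13. The summed mitochondrial level was 21235 to 27870 TPM in FL_KO and 16668 to 19585 TPM in FL_WT mice. The 7 mitochondrial calls became 0 without FL12, the mouse with the highest sum, or with FL04 included, 4 without FL10 and 2 without FL03.

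mt-Cytb, the cytochrome b of complex III, was at 766, 743, 714, 888 and 1035 CPM in FL_KO mice and at 541, 615 and 622 CPM in FL_WT mice. Every FL_KO mouse was above every FL_WT mouse (0.48, SE 0.106, adjusted p = 0.0143). The complex I subunits mt-Nd1 (0.42, adjusted p = 0.0150), mt-Nd4 (0.58, adjusted p = 0.0224), mt-Nd5 (0.54, adjusted p = 0.0263) and mt-Nd2 (0.54, adjusted p = 0.0292), the ATP synthase subunit mt-Atp8 (0.45, adjusted p = 0.0292) and the cytochrome oxidase subunit mt-Co1 (0.25, adjusted p = 0.0333) were higher too. mt-Co3, mt-Nd4l and mt-Atp6 had SEs over 1 on the log2 scale, and mt-Co2 is listed at 0 in all flight libraries. The thymus libraries were made from total RNA without selection of polyadenylated transcripts, and the protein-coding share differed between the groups as given above. The relation of the mitochondrial levels to library composition was not tested. Leaving small and mitochondrial RNA out of the fit gave 427 calls, but it removes the mitochondrial genes themselves and so cannot address their levels.

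Among nuclear genes, Cox8a (-0.24, adjusted p = 0.00394) and Cox6a1 (-0.31, adjusted p = 0.00879) of cytochrome oxidase, Atp5d of ATP synthase (-0.23, adjusted p = 0.00809) and Ndufa6 of complex I (-0.22, adjusted p = 0.0333) were lower. Of 79 cytosolic ribosomal protein genes 9 were lower (11.4%), with a median of -0.16. Rpl13a stood apart with 399, 417, 406, 431 and 391 CPM in FL_KO mice against 489, 571 and 596 CPM in FL_WT mice (-0.44, SE 0.051, adjusted p = 2.99e-06). It lies between 45 and 46 Mb of chromosome 7, where 5 of 46 genes tested were called, all lower, among them Rpl18. Rpl26 (-0.20), Rps26 (-0.23) and Rpl7a (-0.25) were lower on the log2 scale too. Of 38 proteasome genes 5 were lower (13.2%), among them Psmd8 (-0.25, adjusted p = 0.00643), Psmc2 (-0.24, adjusted p = 0.0249), Psma6 (-0.24) and Psmd3 (-0.17), and the median was -0.15. Of 64 replication-dependent histone genes, whose transcripts lack polyA tails, 2 were lower (3.12%), namely Hist1h3d (-0.41, adjusted p = 0.0364) and Hist1h2ao (-0.40, adjusted p = 0.0414), with 62 estimates below 0. Of all genes tested, 2.64% were called in either direction and 1.34% were called lower, so the histone share lay near that of all genes.

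**Figure D3:**
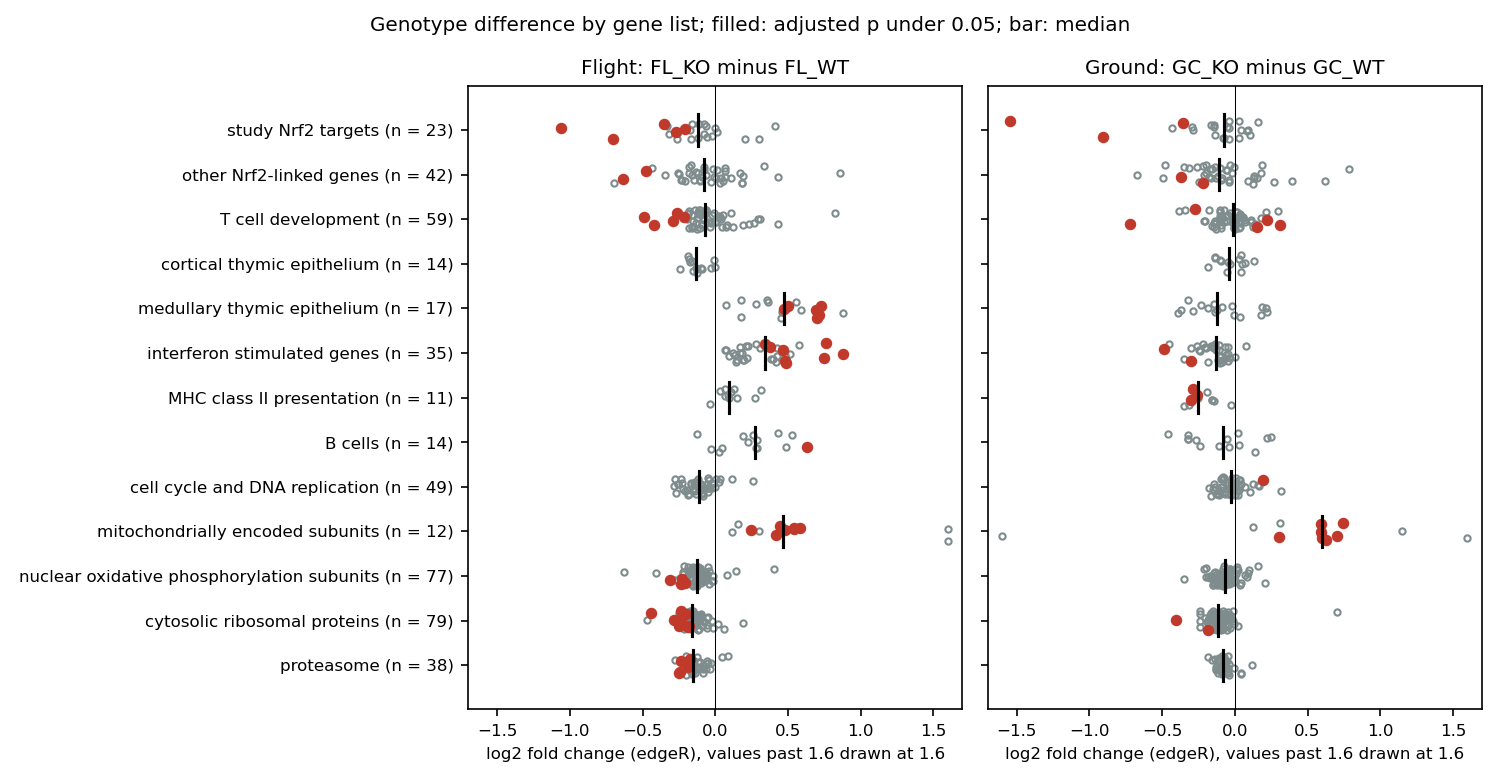
Log2 fold change between Nrf2-KO and WT mice (x axis) for the tested genes of 13 lists, in flight (left) and on the ground (right). Each point is a gene, filled points passed an adjusted p of 0.05, bars are medians, and values past 1.6 are drawn at 1.6. Medullary and interferon stimulated genes have medians of 0.47 and 0.34 in flight and -0.12 and -0.13 on the ground, and mitochondrially encoded subunits have 0.46 and 0.60.

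The largest differences lay mostly outside the Nrf2 lists. 6820402A03Rik, a provisional transcript model (chr1:66793645-66796298, minus strand), had 0 reads in the 5 FL_KO mice and 1259 in the 6 FL_WT mice. Against 3 reads over the FL_KO group it was at least 319-fold lower in FL_KO mice. Gm3608, a pseudogene (chr1:105455971-105458829), was at 130, 130, 133, 121 and 120 CPM in FL_KO and at 3.68, 4.47 and 5.4 CPM in FL_WT mice (4.80, SE 0.091, adjusted p = 8.40e-23). Gm27177, an antisense model (chr14:69582164-69683286), was at 27.6, 31.2, 29.8, 27.6 and 36.6 CPM in FL_KO mice and at most 0.313 CPM in FL_WT mice (7.48, adjusted p = 6.48e-18). Each of these models was far higher in 1 genotype than in the other, and had the same pattern on the ground.

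Protein-coding genes with large differences included Grp, gastrin-releasing peptide, at 7.02, 8.53, 7.27, 8.38 and 5.89 CPM in FL_KO mice and 1, 1.76 and 2.52 CPM in FL_WT mice (2.05, SE 0.185, adjusted p = 4.52e-08). Klk1, tissue kallikrein, was at 6.67, 10.1, 6.72, 6.84 and 4.69 CPM against 1.19, 2.22 and 3.65 CPM (1.66, adjusted p = 0.00123). Neither overlapped between the groups. Igkv5-39, a segment of the kappa light chain of antibodies, was at 2.1, 1.75, 1.21, 1.76 and 2.16 CPM against 0.2, 0.376 and 0.974 CPM (1.95, adjusted p = 0.0333), with a ground estimate of 0.04. Rdh10, which makes retinaldehyde from retinol, was at 31.3, 30.4, 27.7, 24.4 and 22 CPM against 10.8, 12.3 and 15.1 CPM (1.10, adjusted p = 0.0356). Of genes that were lower, Cdc42bpg, a kinase downstream of Cdc42, was at 24.8, 23.5, 26.7, 27 and 30.9 CPM against 53, 59.6 and 65.2 CPM (-1.16, SE 0.072, adjusted p = 2.75e-11). Plac9b (-2.61, adjusted p = 9.40e-05) and Tmem254c (-1.39, adjusted p = 0.00206) have near-identical copies next to them, and their values are uncertain because reads can be split among copies. The pseudogenes Gm7868 (5.31), Rps27a-ps2 (-3.74) and Znf41-ps (-1.25), and Gm3608 above, can likewise share reads with genes of similar sequence. Such sharing was not tested, and the values of these pseudogenes are uncertain too.

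Rab6b, a GTPase of vesicle traffic (chr9:103111787-103185276), was at 1.17, 0.584, 1.43, 3.86 and 5.05 CPM in FL_KO mice and at 41.6, 52.1 and 60.9 CPM in FL_WT mice (-4.42, SE 0.780, adjusted p = 0.00198). The GC_KO mice were not alike in Rab6b. GC02, GC04 and GC12 were at 0.583, 0.275 and 0.581 CPM, and GC01, GC09 and GC11 at 43.9, 56.3 and 47.7 CPM, a range that meets the 46.4 to 53.8 CPM of the GC_WT mice. Rdh10 varied among GC_KO mice as well, with 13.3 and 12.2 CPM in GC01 and GC12 and 37.1 to 61.1 CPM in the other 4.

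Of the 431 genes called in flight, 57.1% had another called gene within 1 Mb, as had 40.5% of all genes tested, and for the 304 called in flight alone the shares were 43.8% and 35.3%. The contrast was wider for calls shared with the ground. Of the 127 genes called in flight and on the ground in the same direction, 73 (57.5%) had another such gene within 1 Mb, as had 10.7% of all genes tested. Within 5 Mb of Nfe2l2, 7 of 54 genes tested were called (13%, Nfe2l2 included), against 3 of 134 (2.24%) from 5 to 20 Mb, 21 of 1009 (2.08%) on the rest of chromosome 2 and 400 of 15110 (2.65%) on other chromosomes. Agps, an enzyme of ether lipid synthesis 0.16 Mb away, was at 131, 123, 130, 123 and 114 CPM in FL_KO mice and at 97.7, 99.5 and 101 CPM in FL_WT mice (0.32, SE 0.039, adjusted p = 7.74e-06). Pde11a, a phosphodiesterase 0.31 Mb away (1.37, adjusted p = 0.00122), Ttn, which encodes titin, 1.03 Mb away (0.73, adjusted p = 0.00123) and Sestd1 1.5 Mb away (0.36, adjusted p = 0.00577) were higher without overlap. Myo3b, 5.64 Mb away, was higher (1.15, adjusted p = 0.00226) and the noncoding 2810002D19Rik, 18.7 Mb away, lower (-0.70, adjusted p = 0.00768). Whether sequence carried along with the targeted allele or a lack of Nrf2 sets these levels cannot be told apart in this design.

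Other dense regions were chosen after their values were seen. Between 69 and 70 Mb of chromosome 14, 8 of 16 genes tested were called, all higher in FL_KO mice, among them Entpd4 (0.91), Entpd4b (0.73) and Gm27177. Within this cluster Gm20236 and Gm37094 had the same log2 fold change, 2.45, and the same mean CPM in each group, as had Gm38378 and Gm37513 (8.30). Such pairs are not independent calls, and single members are uncertain. Between 44 and 47 Mb of chromosome 19, 11 of 46 were called and 10 of them were lower, among them Btrc (-0.47), the mitochondrial carriers Sfxn2 (-1.11) and Sfxn3 (-0.44), the ciliary GTPase Arl3 (-1.01) and Wnt8b (-5.29). Between 66 and 67 Mb of chromosome 1, 6 of 10 were called, with Acadl, an acyl-CoA dehydrogenase of fatty acid oxidation, at -0.86. Btrc, a regulator of Nrf2, thus lay in a region where most called genes were lower.

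Nnt, nicotinamide nucleotide transhydrogenase, supplies mitochondrial NADPH and is partly deleted in the C57BL/6J substrain. The annotation holds a pair of overlapping Nnt models, between which reads are split. Their summed level was 80.9 ± 2.96 CPM (SD, n = 5) in FL_KO and 47.9 ± 5.10 CPM (SD, n = 6) in FL_WT mice, without overlap (78.5 to 85.9 and 40 to 53.6 CPM). On the ground the sums were 91.2 ± 5.41 and 50.6 ± 1.94 CPM (SD, n = 6 each). One model (ENSMUSG00000116207) was called in flight (0.72, adjusted p = 7.85e-04), and the other (ENSMUSG00000025453) was not (0.86, adjusted p = 0.0536). Which form of the gene each mouse carried was not analysed here.

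**Figure D4:**
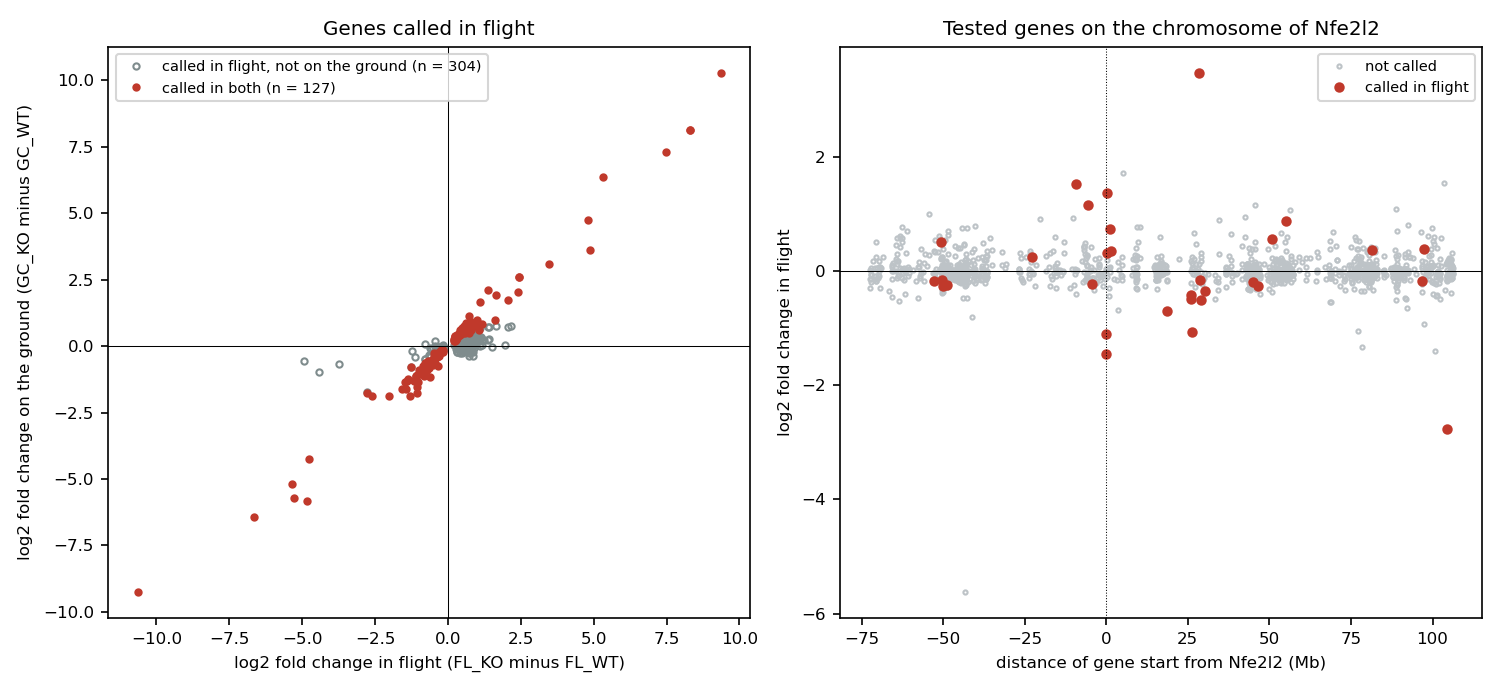
Left, log2 fold change on the ground (y axis) against that in flight (x axis) for the 431 genes called in flight, 127 of which were also called on the ground (filled). Right, log2 fold change in flight of tested genes on the chromosome of Nfe2l2 by the distance of the gene's start from that of Nfe2l2 in Mb, where 7 of 54 genes within 5 Mb were called.

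The ground mice gave the same contrast in separate animals. There, 621 genes (3.81%) were called between GC_KO and GC_WT mice. Of the 431 genes called in flight, 380 (88.2%) had the same sign on the ground, against 64.4% of all genes tested. In both settings 127 genes were called in the same direction, which is 29.5% of the flight calls and 20.5% of the ground calls, and none in opposite directions by edgeR or DESeq2. These 127 included 43 of the 68 flight calls with an absolute log2 fold change of at least 1. At an unadjusted p under 0.05 in both settings there were 1063 genes, 52 of them with opposite signs. Without GC04, the only ground mouse left out in turn, the ground contrast gave 303 calls.

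The lists compared as follows. Of the study's Nrf2 targets 3 were lower on the ground, with Gsta3 at -1.55 and Gstm1 at -0.91, and the median was -0.08. Of mitochondrially encoded subunits 7 were higher, as in flight, with a median of 0.60. The medullary list had a median of -0.12 on the ground with no call by edgeR or DESeq2 (3 lower at an unadjusted p under 0.05), and the interferon list had -0.13 with 2 genes lower. For Aire the ground estimate was 0.19 (adjusted p = 0.494) and for Usp18 -0.15 (adjusted p = 0.382). MHC class II genes, with a median of 0.09 in flight, had -0.25 on the ground and 3 lower.

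Whether the genotype difference in flight differed from that on the ground was tested gene by gene as an interaction. No gene passed the adjusted threshold in edgeR, and the smallest adjusted p was 0.273. At an unadjusted p under 0.05 there were 1342 genes, 154 of them among the flight calls, 13 of the 17 medullary markers and 29 of the 35 interferon stimulated genes. DESeq2 called 8 genes, among them Usp18 (0.62, adjusted p = 0.0263) and Bst2 (0.52, adjusted p = 0.0303), an antiviral membrane protein. Without FL06, edgeR called 52 genes, 51 of them with a more positive difference in flight. They included Irf7, Oas2, Oas3, Ifit1, Ifih1, Usp18, Bst2, Dclk1, H2-Eb1 and Ctss. FL06 had the highest medullary and interferon sums of the FL_WT mice, so leaving it out raises the flight differences of those lists. Leaving out any other single flight mouse gave 0 interaction calls. Without GC04, edgeR called 1 gene, H2-Q6. Flight and ground mice were kept and dissected at different places and times, so flight cannot be told apart from these.

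Genes of stress pathways did not pass the test between FL_KO and FL_WT mice. No call was made by edgeR among 20 glucocorticoid response genes, 22 heat shock and chaperone genes, 19 genes of the integrated stress response, 19 immediate early genes, 18 circadian clock genes, 20 genes of cholesterol synthesis and 17 of iron and haem handling. Of these 133 different genes 9 were higher and 12 lower at an unadjusted p under 0.05, and DESeq2 called 1 lower. Glucocorticoid targets varied widely within each group. Fkbp5, a chaperone induced by glucocorticoids, was at 475, 428, 226, 215 and 233 CPM in FL_KO mice, and Zbtb16 at 20.9, 18.8, 5.62, 5.08 and 5.29 CPM. In both genes FL01 and FL02 stood above FL09, FL11 and FL12.

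In Fkbp5 this split followed the mouse numbers in all 4 groups, for which the labels give no meaning, whereas the Zbtb16 values of GC_WT mice overlapped. The split was noticed in Foxn1 and Fkbp5 and then fitted as a term for numbers 1 to 6 against 7 to 12, so it is a description. Foxn1, the master regulator of thymic epithelium, was at 10.6 to 17.2 CPM in the FL_KO mice numbered up to 6 and at 28.1 to 36.9 CPM in those from 7, and at 17.5 to 23.5 and 28.2 to 33 CPM in FL_WT mice. In GC_KO mice the ranges were 13.7 to 15.6 and 22.7 to 27.4 CPM, and in GC_WT mice 14.1 to 15 and 19.4 to 23.9 CPM. With this term 788 genes differed between the numbers, and among them were 11 of 20 glucocorticoid, 12 of 22 heat shock and 9 of 18 clock genes, all lower in mice from 7, and 15 of 20 cholesterol synthesis genes, all higher. Nr1d1, a repressor of the clock, was lower by 1.17 and Fkbp5 by 0.65 on the log2 scale in mice from 7. With the term in the fit 708 genes were called between FL_KO and FL_WT mice, including all 431 of the fit without it.

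**Figure D5:**
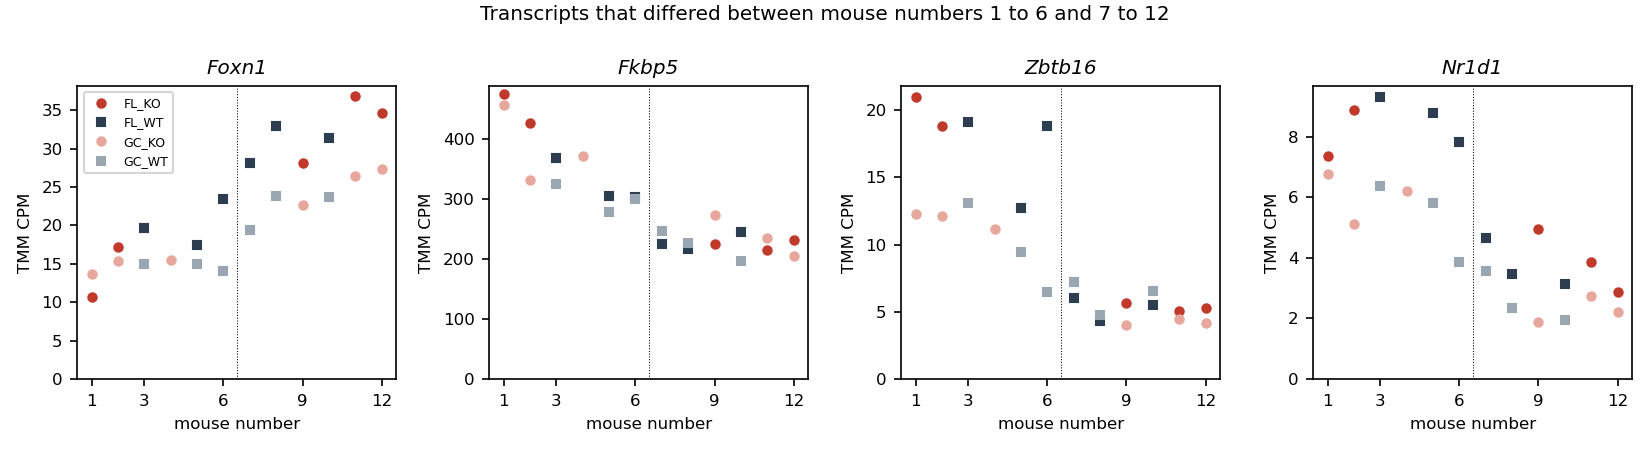
CPM (y axis, starting at 0) of Foxn1, Fkbp5, Zbtb16 and Nr1d1 against the mouse number in the labels, with circles for Nrf2-KO and squares for WT mice and lighter colors for ground mice. The dotted line separates numbers 1 to 6 from 7 to 12. In Foxn1 the FL_KO mice lie at or below 17.2 CPM left of the line and at or above 28.1 CPM right of it, and in Fkbp5 at or above 428 CPM and at or below 233 CPM.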

How the data were processed

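Thymus RNA depleted of rRNA was sequenced as strand-specific libraries. According to the submitters' processing notes, the authors mapped reads to mm10 with STAR 2.6.1 and quantified genes with RSEM 1.3.1. The authors deposited expected counts, not normalized, in which RSEM splits reads that match several genes among them. Beside these the authors deposited RSEM's TPM values. The strand setting of the counting is not given in the sources used here, so genes overlapping on opposite strands can share reads. Of 576 columns of single libraries, 48 were used.

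Expected counts were rounded and tested in R 4.3.3 with edgeR 4.0.16 (filterByExpr by group, TMM, quasi-likelihood test, two-sided) in 1 fit of the 4 thymus groups without FL04. P-values were adjusted by Benjamini-Hochberg over 16307 genes. SEs were derived from the fold change and F statistic. In data simulated for this contrast with 16096 genes, 184 of 200 changed genes and 8 unchanged genes were called. Of the 200 changed genes, 196 were kept by the filter. These counts are given here for all sizes of difference together. Recovery of differences near 0.45 on the log2 scale, the median absolute value of the genes called in flight, was not tested. The fit was repeated with DESeq2 1.42.0 and limma 3.58.1 (the latter on log2(TPM + pseudocount)), with RLE factors, no filter, FL04 included, only the flight groups, small and mitochondrial RNA left out, each flight mouse and GC04 left out in turn, a replicate block for the interaction and, added after the values had been seen, the mouse number term.

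The comparison and the 36 lists were chosen with earlier results of these data known. The text names Nfe2l2, called study targets and 6 fixed ones, up to 4 called genes per other list by adjusted p, the 8 largest called differences per direction without overlap (mean TPM from 5; 1 higher antisense model is not reported here), up to 6 called genes within 20 Mb of Nfe2l2, Nnt, and genes named after their values were seen, which also include further list members. Coordinates are from GENCODE vM21 (GRCm38), which held 99.9% of the identifiers, and promoters from RefSeq.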

Additional observations from a re-analysis of the deposited data

Results flagged for a closer look

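In each flight group the highest and lowest mouse was compared with the next one for the named genes and the list sums, and 15 of 250 groups held a mouse that lay apart by Dixon's 95% limit. Chance alone would flag about 1 in 20. FL06 was the mouse in 4 of them and FL12 in 3.

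In FL_KO mice, FL11 was high in Nqo1 (28.5 CPM, the next at 22.7) and in Aldh7a1 (31 CPM, the next at 26.5). FL12 was high in mt-Nd1 (942.4 CPM, the next at 758.6) and Mki67 (1364 CPM, the next at 1156) and low in the sum of ribosomal protein genes (70690 TPM, the next at 75162). FL09 was high in Skint2 (6.94 CPM, the next at 4.81), FL01 was high in Rps27a-ps2 (1.99 CPM, with the other 4 at 0), and FL01 was low in the sum of histone genes (78512 TPM, the next at 89436).

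In FL_WT mice, FL06 was low in Cd247 (259.5 CPM, the next at 292.3) and Sit1 (47.5 CPM, the next at 50.9) and high in Trpm5 (10.9 CPM, the next at 6.04) and Skint2 (4.17 CPM, the next at 3.07). FL05 was low in Cox8a (57 CPM, the next at 64.5), FL03 was high in Psmc2 (65.5 CPM, the next at 58.2), and FL08 was high in the sum of thyroid and parathyroid genes (445.6 TPM, the next at 213.3).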

How the results depend on the processing

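Among 70 named gene models no direction reversed in any of 1446 combinations of gene and alternative, and 22 of the 65 called ones passed the threshold under every alternative, among them Nfe2l2, Rag1, Rag2, Btrc and Aldh7a1. Of the combinations, 326 no longer passed and 6 newly passed. Against 431 calls between FL_KO and FL_WT mice, 197 were made with FL04 included, 290 with the flight groups alone in the fit (64.5% higher against 49.4%), 72 with limma on log2(TPM + 0.1), 81 on log2(TPM + 1), 610 with DESeq2 and 708 with the mouse number term, and leaving out 1 mouse gave 180 to 701. Without the filter, where 34240 genes were tested, 323 were called. With limma 16.7% and 19.8% of the calls were higher, and the median of all genes moved to -0.12 and -0.11, so differences above 0 are smaller on that scale. On the ground, against 621 calls, limma gave 136 and 132 (30.1% and 30.3% higher), and leaving out GC04, the only ground mouse left out, or 1 flight mouse, which enters through the shared spread, gave 303 to 608. The share of ground calls that were higher was 70.2%, and 58.3% with small and mitochondrial RNA left out. For the interaction, against 0 calls, DESeq2 gave 8 and leaving out 1 flight mouse or GC04 gave 0 to 52. The replicate block for mouse numbers gave 0 calls with 1370 genes at an unadjusted p under 0.05. Over all genes tested, deviations of mice with the same number correlated by -0.083 to 0.145. These values do not address single genes, some of which split between numbers 1 to 6 and 7 to 12 as described above. FL_KO and FL_WT mice share no numbers, so their contrast has no paired form. The 5 lower study targets were 2 with FL04 included, 3 with the flight groups alone, 0 by both limma fits and 1 to 5 without 1 mouse. The 5 lower T cell development genes were 8 with DESeq2, 3 with FL04 included, 2 by both limma fits, 8 with the mouse number term, 3 with the flight groups alone and 3 to 9 without 1 mouse. The 6 higher medullary genes were 1 with FL04 included, 0 by both limma fits and 1 to 7 without 1 mouse. The 8 higher interferon stimulated genes were 2 with FL04 included, 0 by both limma fits, 13 with the mouse number term and 1 to 20 without 1 mouse. The 7 higher mitochondrial genes were 0 with FL04 included, 0 by both limma fits and 0 to 7 without 1 mouse. The limma fits tested 10158 genes, and fewer members of some lists. These were 10 of the 17 medullary, 19 of the 23 study target, 32 of the 35 interferon and 57 of the 59 T cell development genes. Their counts are thus not over the same genes as those of edgeR. Around Nfe2l2, 8.26% of genes were called within 10 Mb and 5.32% within 20 Mb. The causes of these changes in the counts were not tested. Low genes such as Gsta3 and Pde11a rest on a few CPM.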

Other observations

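FL04, the FL_KO mouse left out of all values above, was at 28 CPM in Nfe2l2, 0 in 6820402A03Rik, 23.3 CPM in Gm27177 and 135 CPM in Gm3608, as were the other FL_KO mice or close to them. In other genes it lay at or near the FL_WT range, with Rag1 at 4371 CPM, Aire at 20.6 CPM, Usp18 at 28.5 CPM and mt-Nd1 at 602 CPM. Its summed levels were 772 TPM for the medullary list, 1593 TPM for the interferon list and 18805 TPM for mitochondrially encoded subunits, each below the lowest of the 5 FL_KO mice, and its adipocyte sum was 875 TPM, above all 11 flight mice.

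Further genes outside the lists, named after their values were seen, also differed. Vwf, the clotting factor of endothelium and platelets, was higher in FL_KO mice (0.72, edgeR adjusted p = 0.00270), as were the lipoxygenases Alox12e (0.88, adjusted p = 0.00206) and Alox15 (0.98, adjusted p = 0.00146) and the RNA-binding protein Msi1 (1.25, adjusted p = 0.00319). Malt1, a scaffold of antigen receptor signaling, was higher in flight (0.60, adjusted p = 3.34e-07) and on the ground (0.49, adjusted p = 5.65e-06), and Mef2a was lower in both (-0.38, adjusted p = 3.01e-05, and -0.41, adjusted p = 3.79e-06).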
